A study of Mus musculus with 6 samples.

Results

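The 8 genes followed here in E10.5 mouse embryos are named in the literature as direct targets of *Mir483*: *Igf1*, *Gdf3*, *Bbc3*, *Smad4*, *Cdc25a*, *Socs3*, *Mapk3* and *Srf*. They were taken by name from that literature, and all 8 were found among the 55401 gene identifiers counted. Earlier results of these data were known when these genes and the lists of partner genes used below were chosen. The mature strand reported for each gene was taken from general knowledge of the literature and not from the deposited data. It was miR-483-3p for 5 of them (*Igf1*, *Gdf3*, *Bbc3*, *Smad4* and *Cdc25a*) and miR-483-5p for 3 (*Socs3*, *Mapk3* and *Srf*). The embryos were wild type (WT) or carried the 5C allele, a tandem array of 5 extra *Mir483* copies placed by gene targeting at the endogenous *Igf2* locus. Chimeric males passed the allele to their offspring on a C57BL/6J background, the WT embryos were littermates, and no other allele or treatment was named for either genotype. Each genotype had 3 polyadenylated RNA libraries, and each library came from whole embryos, 2 to a pool, described by the study as male. The array sits at a working gene under that gene's own control, every copy encodes both mature strands, and of the arrays the study built it was the one that passed through the germline.

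A microRNA guides an Argonaute complex to messenger RNAs that pair with its seed, bases 2 to 8 of the mature strand. Paired messages are destabilised or translated less, so RNA levels record only the first of these outcomes. *Mir483* lies in an intron of *Igf2*, the main fetal growth factor gene, and its reported targets act in growth, cell division, cell death and muscle gene control.

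The mature strands are printed first because they decide which sequences can pair. Both come from the minus strand of chromosome 7 in GRCm38, miR-483-3p at chr7:142654932-142654952 and miR-483-5p at chr7:142654968-142654989, with the seed in capitals.
mmu-miR-483-3p: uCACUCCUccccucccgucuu
mmu-miR-483-5p: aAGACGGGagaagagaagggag
The strands are 21 and 22 bases long and their seeds differ. A message pairs with all 7 seed bases of miR-483-3p where it reads AGGAGTG, and with those of miR-483-5p where it reads CCCGTCT, searched on the transcript strand only.

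The 4 windows of 30 bases below show 7-base matches to the miR-483-3p seed in *Igf1*, *Gdf3*, *Socs3* and *Bbc3*, again in capitals and in the direction of the transcript. Of these, 3 lie in 3′ untranslated regions (UTRs): *Igf1* at chr10:87930896-87930925 on the plus strand, *Gdf3* at chr6:122606273-122606302 on the minus strand and *Socs3* at chr11:117967010-117967039 on the minus strand. The window in *Bbc3*, at chr7:16313732-16313761 on the plus strand, is in the coding sequence, and a further match, in the coding sequence of *Smad4*, is not printed.
Igf1 3′ UTR: aacatcgtctttAGGAGTGtttgtttaaaa
Gdf3 3′ UTR: cgggactaggctAGGAGTGtgcttagggta
Socs3 3′ UTR: ccaacctaggtgAGGAGTGgtggctcctgg
Bbc3 coding sequence: gtgtggaggaggAGGAGTGggcccgggaga
The same 7 bases stand in 4 different settings, and none of the 3 UTR matches is followed by the A that would make it an 8-base site.

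Of the 5 genes reported for miR-483-3p, 2 held a 7-base match to that strand in the 3′ UTR of their longest coding transcript: *Igf1*, 174 bases after the stop codon in a UTR of 6308 bases, and *Gdf3*, 16 bases after it in a UTR of 903 bases. *Bbc3* and *Smad4* held 1 each in the coding sequence instead, so 4 of the 5 had a match in one region or the other. *Cdc25a* had none in either. Of the 3 genes reported for miR-483-5p, 0 held a match to its seed in the 3′ UTR or the coding sequence. *Socs3*, reported for the 5p strand, carried a 3p match at base 526 of a UTR of 1474 bases. *Smad4* carried a 5p match in its coding sequence, while *Mapk3* and *Srf* had no 7-base match to either strand. A 6-base match was present at base 1179 of the *Igf1* UTR for the 3p strand and at base 851 of the *Gdf3* UTR for the 5p strand.

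**Figure D1:**
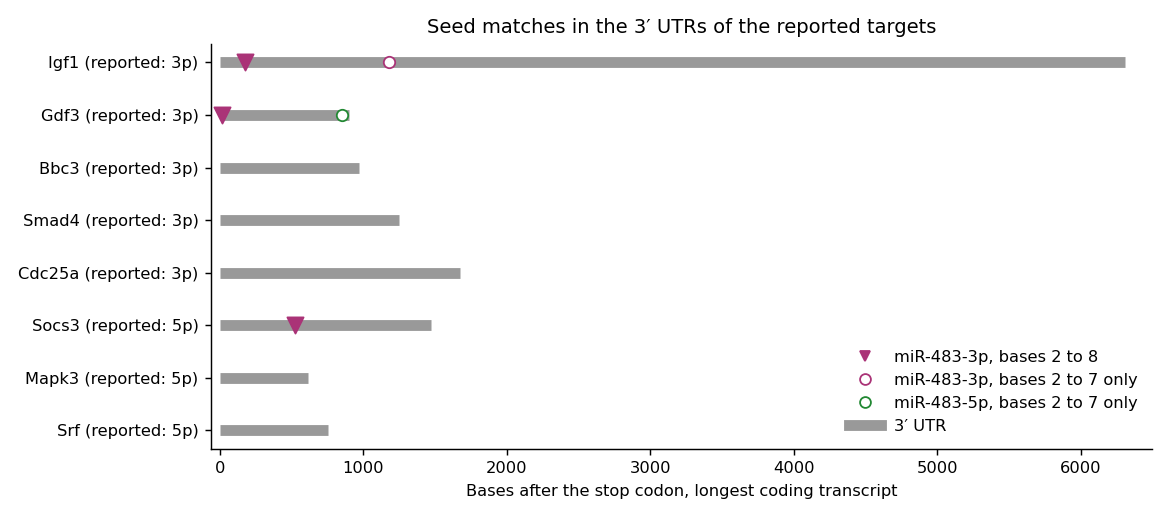
Positions of seed matches along the 3′ UTR of each reported target, in bases after the stop codon of the longest coding transcript, with grey bars for the UTR. Filled triangles mark 7-base matches and open circles 6-base matches; *Igf1*, *Gdf3* and *Socs3* each have 1 filled triangle for miR-483-3p, and no gene has one for miR-483-5p.

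Such matches are common in long UTRs. Among 20930 coding genes with an annotated 3′ UTR, 10.52% held the 3p match and 2.66% the 5p match in that UTR, and 14.4% and 4.40% in the coding sequence. Among the 241 genes whose UTR length was within 10% of that of *Igf1*, 44.0% held the 3p match. The share was 7.28% for UTRs as short as that of *Gdf3* and 10.3% for those like *Socs3*, and 5.66% of coding sequences like that of *Bbc3* held the match. A match is by itself a stretch of letters and not a measured binding site. For *Igf1* the study tested an AGGAGUG target, the same bases as the match printed above, in a luciferase reporter of the 3′ UTR. In human cells a miR-483-3p mimic lowered the unmutated reporter but not the mutated one. Its other evidence included Argonaute immunoprecipitation of *Igf1* from cultured cells, a reporter with a miR-483-3p antagonist, and lower IGF1 protein in an inducible *Mir483* model. Binding in these embryos was not measured here. Where no match was found the result says only that these letters are not in the regions searched.

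The 6 libraries held between 6357343 and 19151368 counts, the smallest being WT replicate 3. Values below are CPM, counts scaled to a common library total with factors from the trimmed mean of M values, and a count of 3 corresponds to between 0.157 and 0.472 CPM. Some libraries stood apart. The 11 yolk sac endoderm markers, all of them counted, summed to 6852 CPM in the WT pools replicate 1 and to between 201 and 1374 CPM elsewhere. The limb genes *Tbx5* and *Tbx4* summed to 408 CPM in the WT pools replicate 3 and to between 11.8 and 17.2 CPM elsewhere. The 4 Y-linked genes summed to 4.12 CPM in the WT pools replicate 2 and 0.0854 CPM in the 5C pools replicate 2, and to between 130 and 212 CPM in the other 4 libraries, while *Xist* was counted in all 6. *Xist* had 535, 849 and 692 CPM in the WT pools and 495, 914 and 640 CPM in the 5C pools, in order of replicate. The 2 libraries numbered replicate 2 therefore go against the stated sex of the pools, and results are also given without them. The other 4 libraries held both Y-linked RNA and *Xist*, so leaving out the replicate 2 pair does not leave pools shown to be male alone. Markers of neural tube, heart, somite and erythroid cells were counted in every library.

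The targeted gene followed the labels. The *Mir483* hairpin, chr7:142654924-142654996, had 11, 5 and 2 counts in the WT libraries and 85, 51 and 36 in the 5C libraries. All 5C values were above all WT values, with a log2 fold change of 3.05 (95% interval 2.24 to 3.86) and an adjusted p of 0.169 by edgeR's quasi-likelihood test with Benjamini-Hochberg adjustment over 16784 genes. A polyadenylated library captures the primary transcript and not the mature strands, so these counts do not measure miR-483-3p or miR-483-5p. The host gene *Igf2* had 16.9, 8.41 and 17.1 CPM in the WT pools and 10.48, 10.1 and 9.75 CPM in the 5C pools, with overlapping genotypes and a log2 fold change of -0.48 (95% interval -1.01 to 0.054, edgeR adjusted p = 0.781). *Igf2* shares exon sequence with a gene annotated on the same strand, so its counts are uncertain. The study itself reported *Igf2* as lower in 5C embryos, in its own RNA sequencing analysis and in protein. It found the same in independent later embryos by RT-qPCR and western blot.

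A gene was called where the adjusted p was below 0.05 and the fold change above 1.5. Of the 8 reported targets, 7 had enough counts to be tested and *Gdf3* did not. By edgeR 0 of the 7 were called, and so were 0% of the 16784 genes tested. The study, with edgeR's quasi-likelihood test and the same thresholds, did report called genes in these embryos. Most of those were lower in 5C, and *Igf2* was among them. The reason for this difference was not tested. At an unadjusted p under 0.05 there was 1 target, *Bbc3*, against 6.02% of all genes, and 0 were called by DESeq2 or limma-voom either. The genotypes did not overlap for 2 targets, *Bbc3* with 5C above and *Cdc25a* with 5C below, and 11.4% of all genes showed such a separation. Of the 7, 4 had a log2 fold change below 0 and 3 above it, beside 50.7% of all genes below 0. The median over the 7 was -0.0069 and that over all genes -0.0024. Each count over the 7 rests on single genes.

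**Figure D2:**
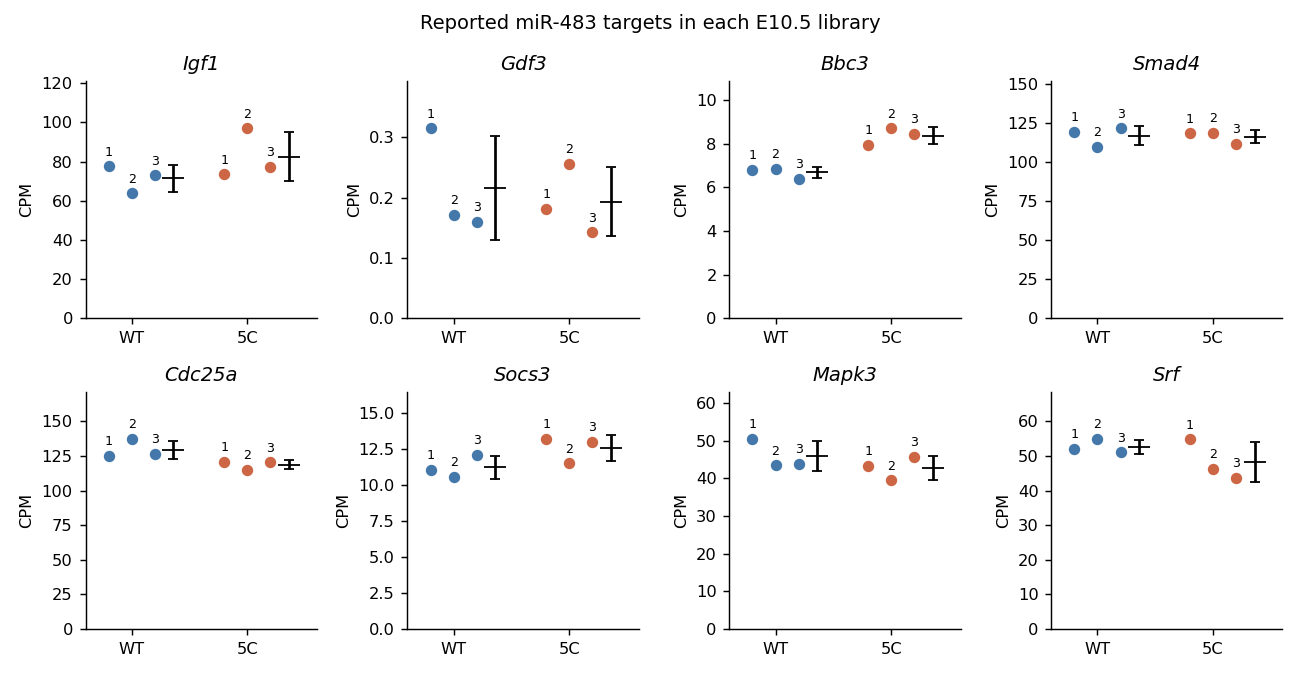
CPM of each reported target in the 3 WT and 3 5C libraries, with the replicate number over each point and bars for the mean and SD of 3 libraries. The genotypes separate for *Bbc3* (6.38 to 6.87 in WT, 7.94 to 8.71 in 5C) and *Cdc25a* (125 to 137 in WT, 115 to 121 in 5C) and overlap for the other 6 genes, and every axis starts at 0.

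*Igf1* encodes the insulin-like growth factor that, with IGF2, acts through the IGF1 receptor to drive fetal growth. The gene spans chr10:87858265-87937042. It had 77.5, 63.7 and 72.9 CPM in the WT pools and 73.4, 96.9 and 77.2 CPM in the 5C pools. The genotypes overlapped, and the highest value of all was that of 5C replicate 2. The mean was 71.4 ± 7.04 CPM in the WT pools and 82.5 ± 12.6 CPM in the 5C pools (SD, n = 3 for each genotype). The log2 fold change was 0.21 (SE 0.12, 95% interval -0.053 to 0.47, edgeR adjusted p = 0.781), so the interval includes no difference and ends, on its lower side, at 0.964 times the WT level. Without both replicate 2 libraries, the pair low in Y-linked RNA, the log2 fold change was -0.0012, without 5C replicate 2 alone it was 0.071 and without WT replicate 2 alone 0.13. Across single omissions it reached 0.28, without 5C replicate 1. In whole-embryo libraries a change in the number of cells of a type and a change in RNA per cell cannot be told apart.

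The *Igf1* difference also moved with base composition. Its longest transcript has 38.0% GC, and the 600 genes tested within 1 percentage point of that had a median log2 fold change of 0.11. Across 16770 genes the log2 fold change and the GC content had a Spearman rho of -0.31, a description over genes that share the same 6 libraries. With offsets for GC content in each library the *Igf1* value was 0.097. The part of GC content in the values of single targets was not tested further.

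**Figure D3:**
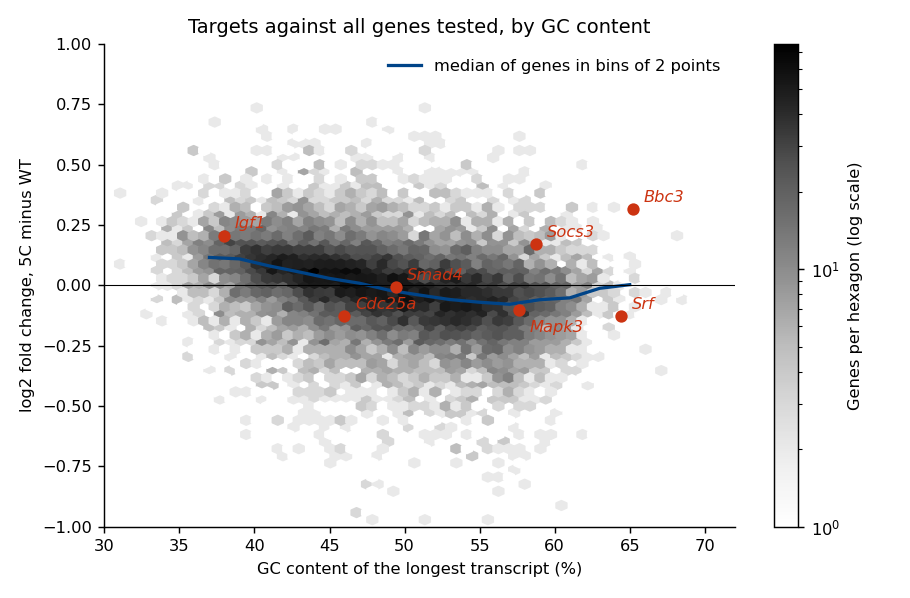
Log2 fold change (5C minus WT) against GC content of the longest transcript for the genes tested, shaded by the number of genes in each hexagon on a log scale, with the 7 tested targets in red and the median of genes in bins of 2 percentage points as a line. The line lies above 0 at low GC, where *Igf1* sits, and below it between about 50% and 60%; *Bbc3* and *Socs3* lie above it, and 184 of 16770 genes fall outside the axes.

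Of 15 other genes of the IGF axis, 12 were tested, 0 were called and 10 had a negative log2 fold change. Of these, 2 had an unadjusted p under 0.05, both lower in 5C, beside 3.47% of all genes. *Igfbp5*, which encodes an IGF binding protein, had 169, 109 and 177 CPM in the WT pools and 101, 108 and 107 CPM in the 5C pools. Its genotypes were narrowly apart, with 109 CPM in WT replicate 2 and 108 in 5C replicate 2. Of all genes 5.1% were apart with 5C below. The *Igfbp5* log2 fold change was -0.52 (SE 0.15, edgeR adjusted p = 0.781). *Igf2r*, the receptor that clears IGF2, had 473, 436 and 544 CPM in the WT pools against 426, 373 and 379 CPM in the 5C pools, a log2 fold change of -0.30 (SE 0.093, edgeR adjusted p = 0.781). Without WT replicate 2 the count lower at an unadjusted p under 0.05 was 6 of 13, and the share over all genes was 7.03%. *Igfbp5* carries a 3p match in its 3′ UTR, and so do *Igf2*, *Igfbp3* and *Irs1* of this list. Their log2 fold changes were -0.48, -0.060 and -0.16. *Igf2r* carries none, and the part of the match in these values was not tested.

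*Gdf3* encodes a TGF-beta family ligand of the early embryo that signals with the NODAL receptors. The gene spans chr6:122605403-122610087. It had 6, 2 and 1 counts in the WT pools and 3, 3 and 2 counts in the 5C pools, or 0.315, 0.172 and 0.160 CPM against 0.182, 0.256 and 0.142 CPM. All but 1 library lay at or under 3 counts, so no fold change is given, and any difference in *Gdf3* was not detectable at this depth. The gene with the 3p match nearest its stop codon is thus the one that these libraries could not measure.

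Of 12 partners in NODAL and GDF signalling, 6 were tested, 0 were called and 0 reached an unadjusted p under 0.05. The type II receptor *Acvr2a* had 92.7, 91.8 and 98.1 CPM in the WT pools and 94.8, 110 and 104 CPM in the 5C pools, which overlap, with a log2 fold change of 0.13 (SE 0.074). The type I receptor *Acvr1c* was close to the detection limit, between 0.525 and 1.45 CPM in all libraries, with a log2 fold change of 0.58 (SE 0.35).

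*Smad4* encodes the common partner through which receptor-activated SMADs reach the nucleus. The gene spans chr18:73639009-73703780. It had 119, 110 and 121 CPM in the WT pools and 118, 119 and 111 CPM in the 5C pools. The ranges nearly coincided, and the means were 117 ± 6.15 and 116 ± 4.07 CPM (SD, n = 3 for each genotype). Its log2 fold change of -0.0069 (SE 0.068, edgeR adjusted p = 0.998) had a 95% interval of 0.896 to 1.11 times the WT level, so that larger losses lie outside it. The sign of so small a value turned with the setting.

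The 14 SMAD family genes and partners were all tested, with 0 called and 0 at an unadjusted p under 0.05. *Smad2*, which carries activin and NODAL signals, had 163, 170 and 172 CPM in the WT pools and 175, 182 and 186 CPM in the 5C pools. These values did not overlap, as for 6.26% of all genes with 5C above. The log2 fold change was 0.11 (SE 0.060, edgeR adjusted p = 0.781), and *Smad2* was the 1 gene of this list without overlap. *Smad3*, its close relative, had 101, 95.4 and 94.4 CPM against 85.4, 92.8 and 96.0 CPM, which overlap, and a log2 fold change of -0.089 (SE 0.072). *Bmpr1a*, a type I BMP receptor, was the other gene with the smallest p in the list, with a log2 fold change of 0.11 (SE 0.070).

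*Socs3* encodes a feedback inhibitor of JAK kinases that STAT3 induces. The gene spans chr11:117966079-117970047. It had 11.1, 10.6 and 12.1 CPM in the WT pools and 13.2, 11.5 and 13.03 CPM in the 5C pools. Of the 5C values, 2 were above every WT value and the other lay within the WT range. The log2 fold change was 0.17 (SE 0.12, 95% interval -0.11 to 0.45, edgeR adjusted p = 0.794), and it stayed positive in all 18 alternatives.

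Of 16 SOCS and JAK-STAT genes, all tested, 0 were called and 2 had an unadjusted p under 0.05, both higher in 5C, as had 2.55% of all genes. The kinase gene *Jak2* had 73.8, 74.3 and 71.5 CPM in the WT pools and 86.3, 88.6 and 79.8 CPM in the 5C pools. Every 5C value was above every WT value, as for 6.26% of all genes. The log2 fold change was 0.21 (SE 0.069, edgeR adjusted p = 0.781). *Socs6*, a further SOCS family member, had 102, 111 and 105 CPM in the WT pools against 110, 127 and 138 CPM in the 5C pools, with an overlap at the lower end and a log2 fold change of 0.24 (SE 0.088, edgeR adjusted p = 0.781). Without 5C replicate 2 neither direction had a gene at that threshold, at log2 fold changes of 0.18 for *Jak2* and 0.23 for *Socs6*, and the genes of all kinds at that threshold were 456 in place of 1011.

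*Mapk3* encodes ERK1, a terminal kinase of the RAS-RAF-MEK cascade. The gene spans chr7:126759601-126765819. It had 50.4, 43.4 and 43.9 CPM in the WT pools and 43.3, 39.4 and 45.8 CPM in the 5C pools. The highest value was that of WT replicate 1 and the ranges overlapped. The log2 fold change was -0.10 (SE 0.092, 95% interval -0.31 to 0.10, edgeR adjusted p = 0.821), and it was -0.025 without WT replicate 1 and -0.053 without 5C replicate 2.

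All 19 other genes of the ERK cascade were tested, with 0 called and 2 at an unadjusted p under 0.05, both higher in 5C, beside 2.55% of all genes. *Dusp6*, a phosphatase that ERK induces and that inactivates it, had 148, 129 and 148 CPM in the WT pools and 169, 160 and 157 CPM in the 5C pools. Its genotypes did not overlap, as for 6.26% of all genes with 5C above. The log2 fold change was 0.20 (SE 0.073, edgeR adjusted p = 0.781). Without 5C replicate 2 neither direction had a gene at that threshold here either, with *Dusp6* at 0.20.

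*Cdc25a* encodes a phosphatase that removes inhibitory phosphates from cyclin-dependent kinases and so opens S phase and mitosis. The gene spans chr9:109875579-109893895. It had 125, 137 and 126 CPM in the WT pools and 121, 115 and 120 CPM in the 5C pools. Every 5C library was below every WT library, a pattern that 5.1% of all genes showed in this direction. The means were 130 ± 6.58 and 119 ± 3.18 CPM (SD, n = 3 for each genotype). The log2 fold change was -0.13 (SE 0.065, 95% interval -0.27 to 0.020, edgeR adjusted p = 0.781), and it was negative in all 18 alternatives, from -0.15 to -0.063. It was -0.083 without WT replicate 2 and -0.063 without both replicate 2 libraries. The nearest libraries of the genotypes were WT replicate 1 and 5C replicate 1. The longest transcript of *Cdc25a* holds no 7-base match to either strand in its 3′ UTR of 1676 bases or its coding sequence.

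Of the 3 CDC25 genes, *Cdc25b* had 76.0, 65.0 and 75.9 CPM in the WT pools and 91.2, 79.7 and 66.4 CPM in the 5C pools, and *Cdc25c* had 64.6, 71.7 and 64.9 CPM against 73.1, 67.3 and 60.4 CPM. Both overlapped between genotypes, with log2 fold changes of 0.13 (SE 0.12) and -0.0030 (SE 0.087). *Cdc25a* made up 32.8 ± 1.71% of the level per kilobase of the 3 genes in WT and 29.97 ± 2.92% in 5C (SD, n = 3 each; two-sided exact permutation p = 0.3, adjusted p = 0.6 over 2 shares of this kind, where 3 against 3 cannot go below 0.1). The size of the share depends on the length used: with the longest transcript in place of all exons it was 39.8% over all libraries. Of 16 genes of CDK control, all tested, 0 were called and 1 had an unadjusted p under 0.05, lower in 5C, beside 3.47% of all genes. That gene, *Ccne1*, encodes cyclin E1, and it had 91.0, 107 and 90.3 CPM in the WT pools and 80.7, 84.4 and 87.5 CPM in the 5C pools. Its 5C values were all below its WT values, as for 5.1% of all genes. The log2 fold change was -0.19 (SE 0.083, edgeR adjusted p = 0.781), and it was -0.11 without WT replicate 2 and -0.11 without both replicate 2 libraries. The checkpoint kinase gene *Chek1* had 91.6, 102 and 102 CPM against 107, 110 and 109 CPM. It was separated in the other direction, as were 6.26% of all genes. Its log2 fold change was 0.15 (SE 0.069, edgeR adjusted p = 0.781), and 0.096 without WT replicate 1. Without WT replicate 2 the list had 0 genes lower and 2 higher at the unadjusted threshold. In that setting 1803 of all 17394 genes were at the threshold in either direction, and 7.03% were lower.

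*Bbc3* encodes PUMA, a BH3-only protein that p53 induces and that triggers the mitochondrial route to cell death. The gene spans chr7:16308393-16318205. It had 130, 80 and 40 counts in the WT pools and 131, 102 and 119 counts in the 5C pools, or 6.82, 6.87 and 6.38 CPM against 7.94, 8.71 and 8.47 CPM. Every 5C library was above every WT library, a separation that 6.26% of all genes showed in this direction. The means were 6.69 ± 0.269 and 8.37 ± 0.394 CPM (SD, n = 3 for each genotype). The log2 fold change was 0.32 (SE 0.14, 95% interval 0.0088 to 0.62), or 1.245 times the WT level, and it failed the correction over all genes (edgeR adjusted p = 0.781). A positive value means more *Bbc3* RNA in the embryos with extra *Mir483* copies. It was positive in all 18 alternatives, from 0.28 to 0.36, but the unadjusted p was above 0.05 in 12 of them, among them DESeq2 and each omission of 1 library.

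**Figure D4:**
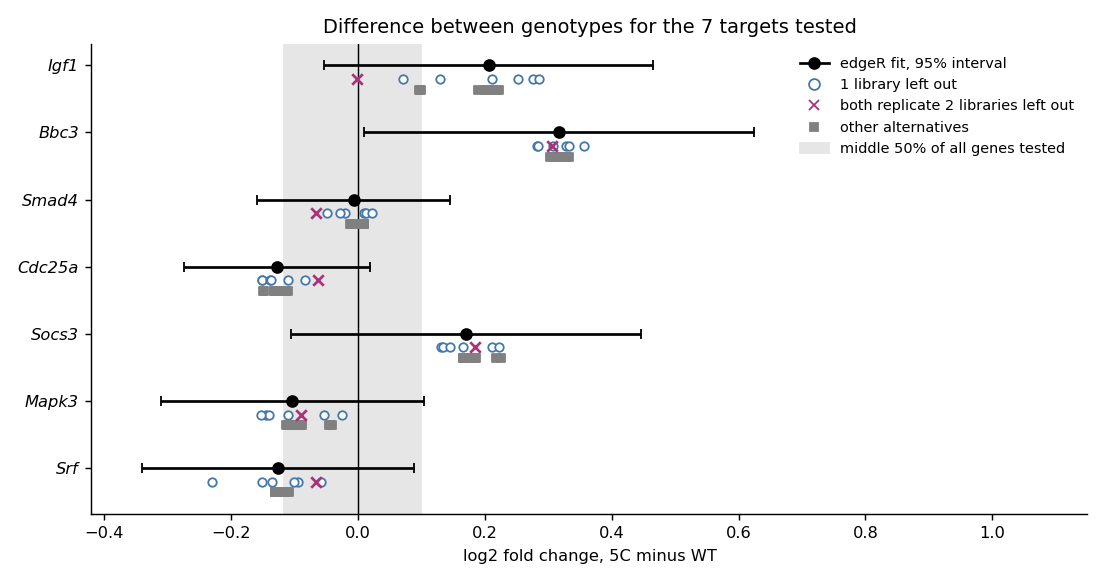
Log2 fold change (5C minus WT) of the 7 tested targets with its 95% interval from the edgeR fit (black), with 1 library left out (open circles), with both replicate 2 libraries left out (crosses) and under the other alternatives (grey squares); the grey band is the middle 50% of all genes tested. Only the interval of *Bbc3* lies wholly above 0, from 0.0088, and the *Igf1* points reach from -0.0012 to 0.28.

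Of 17 BCL2 family genes and regulators, 15 were tested, 0 were called, and 1 in each direction had an unadjusted p under 0.05, beside 3.47% lower and 2.55% higher over all genes. *Bcl2*, which opposes PUMA, had 39.9, 38.8 and 42.4 CPM in the WT pools and 43.9, 53.6 and 46.4 CPM in the 5C pools. The 5C values were all higher, as for 6.26% of all genes, with a log2 fold change of 0.25 (SE 0.093, edgeR adjusted p = 0.781). *Trp53*, which encodes p53, had 42.4, 23.4 and 41.3 CPM in the WT pools against 26.2, 23.6 and 24.9 CPM in the 5C pools. WT replicate 2 was the lowest of all 6 libraries and the other WT libraries the highest, with a log2 fold change of -0.52 (SE 0.19, edgeR adjusted p = 0.781). Without 5C replicate 2 neither gene was at that threshold, with *Bcl2* at 0.16 and *Trp53* at -0.49.

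*Srf* encodes serum response factor, which binds CArG boxes and with its cofactors switches on actin cytoskeleton, muscle and immediate early genes. The gene spans chr17:46548329-46556175. It had 51.9, 54.9 and 51.1 CPM in the WT pools and 54.8, 46.2 and 43.6 CPM in the 5C pools. Of the 5C libraries, 2 were below the WT range and 5C replicate 1 lay within it. The means were 52.6 ± 1.995 and 48.2 ± 5.84 CPM (SD, n = 3 for each genotype), for a log2 fold change of -0.13 (SE 0.096, 95% interval -0.34 to 0.089, edgeR adjusted p = 0.803). It was -0.23 without 5C replicate 1, -0.058 without 5C replicate 3 and -0.067 without both replicate 2 libraries, and its adjusted p lay between 0.552 and 0.9998 in the 18 alternatives.

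Of 28 cofactors and targets of SRF, 26 were tested and 0 were called. A negative log2 fold change was found for 21 of the 26, and the median was -0.15 beside -0.0024 over all genes. Without WT replicate 1, the library high in yolk sac markers, the median of the list was -0.088. Of the 26, 5 had an unadjusted p under 0.05, all lower in 5C, and 6 did not overlap between genotypes, all with 5C below, beside 3.47% and 5.1% of all genes. The smooth muscle actin gene *Acta2* had 95.2, 92.9 and 87.1 CPM in the WT pools and 69.9, 66.5 and 75.2 CPM in the 5C pools. All 5C values were below the lowest WT value, with a log2 fold change of -0.38 (SE 0.074, edgeR adjusted p = 0.781). The smooth muscle gene *Tagln* had 43.8, 48.0 and 42.1 CPM against 35.4, 38.9 and 33.9 CPM, a log2 fold change of -0.31 (SE 0.088, edgeR adjusted p = 0.781). The other 3 were *Vcl*, *Actc1* and *Cnn2*, named because they complete the count of 5, with log2 fold changes of -0.22, -0.21 and -0.16. *Actc1* was -0.12 without WT replicate 2 and -0.084 without both replicate 2 libraries.

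The number of SRF partners at an unadjusted p under 0.05 and lower in 5C was between 3 and 7 in the 18 alternatives, an analysis added after the values were seen. It was 3 without 5C replicate 2 and 3 with GC offsets, where the shares over all genes were 1.68% and 3.11%. The heart genes *Myh6*, *Myh7* and *Tnnt2*, all 3 counted in every library, moved with this list: they summed to between 183 and 241 CPM in the WT pools and between 142 and 148 CPM in the 5C pools, without overlap. Their part in the result was not tested. By DESeq2 the adjusted p of *Acta2* was 0.0331, with a fold below 1.5, and it lay between 0.0032 and 0.9998 over the alternatives.

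**Figure D5:**
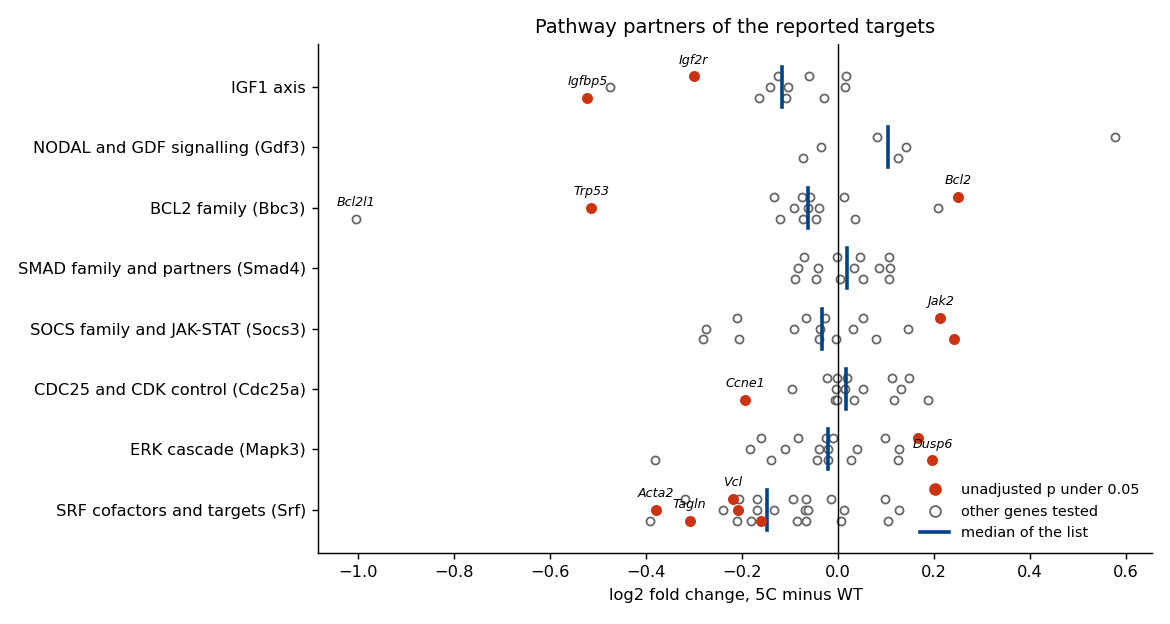
Log2 fold change (5C minus WT) of the tested partner genes of each reported target, 1 row for each list, with genes at an unadjusted p under 0.05 in red and the median of the list as a blue bar. The SRF row has its median at -0.15 and 5 red points, all below 0, and no gene of any row was called after adjustment.

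The lists held 136 different partner genes, of which 123 were tested and 0 called. The genotypes did not overlap for 9 with 5C below and 6 with 5C above, beside 5.1% and 6.26% of all genes. At an unadjusted p under 0.05, 9 were lower and 5 higher in 5C, beside 3.47% and 2.55% of all genes. Among the 28 with a 7-base match to miR-483-3p in the 3′ UTR, 20 had a negative log2 fold change, with a median of -0.046, and 2 were at that threshold and lower, *Igfbp5* and *Vcl*. Among the 95 without one, 58 were negative, the median was -0.037, and 7 were lower and 5 higher at that threshold. Both groups lean below 0 by about the same amount, and the difference between them was not tested.

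Levels of different genes were compared as CPM per kilobase of exon, averaged over all 6 libraries. *Smad4* was highest at 31.4 ± 1.26 CPM per kb (SD, n = 6), followed by *Mapk3* at 19.7 ± 1.598, *Srf* at 17.4 ± 1.59, *Cdc25a* at 15.5 ± 0.944, *Igf1* at 7.77 ± 1.11, *Socs3* at 4.12 ± 0.368, *Bbc3* at 3.55 ± 0.457 and *Gdf3* at 0.0844 ± 0.0276. The libraries of *Mapk3* and *Srf*, of *Srf* and *Cdc25a*, and of *Socs3* and *Bbc3* overlapped, so those neighbours are not ordered. With the longest transcript in place of all exons *Cdc25a* stood at 33.04 CPM per kb, beside 34.4 for *Smad4*. On the exon scale *Smad2* had 19.9, *Smad3* 17.0, *Cdc25b* 20.3, *Cdc25c* 13.6 and *Socs2* 1.73 CPM per kb.

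The targets did not move as a group across libraries. As a description over 6 libraries that share depth and pools, Pearson's r of log2 CPM was -0.88 between *Igf1* and *Cdc25a*, 0.64 between *Igf1* and *Bbc3*, -0.76 between *Bbc3* and *Cdc25a* and 0.63 between *Cdc25a* and *Srf*. Among 10349 genes with a mean of at least 10 CPM, the pattern most like that of each target was *Ikzf5* for *Igf1* (r = 0.991), *Ehbp1* for *Bbc3* (0.995), *Sbno1* for *Smad4* (0.993), *Ctu2* for *Cdc25a* (0.992), *Prdx6* for *Socs3* (0.984), *Scarb1* for *Mapk3* (0.995) and *Inppl1* for *Srf* (0.993). Values this high are the best of many candidates over few libraries.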

How the data were processed

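RNA from whole E10.5 embryos (3 WT and 3 5C pools of 2 embryos) was sequenced as single-end reads of a stranded polyadenylated library. The authors aligned the reads with STAR to GRCm38 and deposited raw counts per Ensembl gene, with no normalization; which strand column was taken is not given in the sources used here. Counts were tested as deposited with edgeR 4.0.16 (R 4.3.3): filterByExpr, TMM scaling and the quasi-likelihood F-test of 5C against WT with no covariate, adjusted by Benjamini-Hochberg over 16784 genes. A call needed an adjusted p below 0.05 and a fold above 1.5. SE is the absolute log2 fold change over the square root of F, and intervals are at 95%. Each p-value sets the difference between genotypes against the spread between pools, which the test moderates across genes. The spread between single embryos is not seen in pools. CPM values use TMM-scaled totals. Exon lengths, UTRs and seed matches come from GENCODE M21 (GRCm38), in which 55141 of 55401 identifiers were found, and mature microRNA sequences from RefSeq (GRCm38.p6), where both strands matched.

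The 8 genes, the partner lists and the markers were chosen with earlier results of these data known. Named genes are the 8 targets, *Mir483*, *Igf2*, the 2 tested partners of each list with the smallest unadjusted p, paralogues used to compare levels, and for each target the gene of most similar pattern (mean of at least 10 CPM, prior count 2). Of these, 1 partner and 1 paralogue are not reported here. *Vcl*, *Actc1* and *Cnn2* were added after their values were seen, and *Igfbp3* and *Irs1* because they carry a 3p match. The 5p or 3p strand of each target is background knowledge. Alternatives were other scalings, filters and tests (DESeq2 1.42.0, limma 3.58.1), a replicate block, GC offsets and omitted libraries. Every pair of libraries differed by more than sampling noise.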

Additional observations from a re-analysis of the deposited data

How the results depend on the processing

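No reported target was called under any of the 18 alternatives, and *Bbc3*, *Cdc25a*, *Socs3*, *Mapk3* and *Srf* kept their direction in all of them. *Igf1* was reversed once, at -0.0012 without both replicate 2 libraries. *Smad4* was reversed at 0.010 with library size alone, 0.0067 without the count filter, 0.0091 with GC offsets and 0.0098 with the replicate block and GC offsets, and ranged from -0.049 to 0.022 when 1 library was left out (0.010 without WT replicate 1, 0.013 without WT replicate 3, 0.022 without 5C replicate 3). The count over all genes was 0 by edgeR, with 1011 at an unadjusted p under 0.05. It was 319 without the count filter, 11 by DESeq2, 3 with robust moderation, and 0 to 1 with 1 library left out. Without the filter 1 gene was called in the IGF axis (*Igfbp1*) and 1 in the BCL2 list (*Bcl2l1*, where WT replicate 3 had 199 CPM and the other libraries 46.3 to 49.7). Of the targets, 2 had a 3′ UTR match to their reported strand, and 0 with 8-base sites alone. The cause of these shifts was not tested.

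Deviations of same-numbered WT and 5C libraries correlated at -0.17, 0.20 and -0.17 in order of replicate, and so differed in sign. The positive value was that of the replicate 2 libraries, the pair low in Y-linked RNA. Among the libraries of unlike number the correlation was highest, at 0.31, for WT replicate 1 with 5C replicate 3. It was 0.19 for WT replicate 3 with 5C replicate 1, and the lowest was -0.20. A pairing in another order was not tested. With the replicate block 0 genes were called, 782 had an unadjusted p under 0.05, and the log2 fold change of *Bbc3* was 0.32. The 3 pools per genotype and 40 to 218 counts limit the precision for *Bbc3* and *Socs3*, and *Gdf3* could not be measured.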
